A study of Mus musculus with 8 samples.

Results

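The mRNA levels of 10 genes that detect microbial products, or pass that signal on, were examined in Paneth cells purified by flow cytometric sorting from the mouse small intestine. The genes were chosen by name for their role: the cytosolic sensors Nod1 and Nod2 with their kinase Ripk2, the adaptors Myd88 and Ticam1, and the Toll-like receptors Tlr2, Tlr3, Tlr4, Tlr5 and Tlr9. They are called the sensor genes here, adaptors and kinase included. All 10 were found among the 55414 gene identifiers of the count table. The cells came from C57BL/6J mice, 4 on standard chow (control) and 4 on zinc depleted chow (zinc deficient), both for 7 weeks. No other allele or agent was named for either group, and ages were not given. Each library is taken here as 1 mouse: the labels number the replicates but do not name the animals, and if animals were shared the p-values would measure technical spread only. The comparison of diets asks whether dietary zinc depletion changes the Paneth cell transcriptome, here for these sensors.

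Paneth cells sit at the base of the intestinal crypts and release antimicrobial peptides, α-defensins and lysozyme among them, into the crypt lumen. NOD1 and NOD2 are cytosolic receptors for fragments of bacterial peptidoglycan, the polymer of the cell wall. Both recruit the kinase RIPK2, which leads to NF-κB activation. Toll-like receptors sit at the cell surface (TLR2 for lipoproteins, TLR4 for lipopolysaccharide, TLR5 for flagellin) or in endosomes (TLR3 for double-stranded RNA, TLR9 for unmethylated CpG DNA). MYD88 serves every one of these receptors except TLR3, and TICAM1, also called TRIF, serves TLR3 and TLR4. NOD2 is best known in this cell type because variants of the human gene raise the risk of Crohn's disease of the ileum.

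The libraries held 8557690 to 12648005 counts, and the 20 most abundant genes took 60.1% to 78.9% of them. The 10 sensor genes together took 290 to 751 counts of a mouse, which is 0.0027% to 0.00635%. A gene with 0 counts can be present at up to 3 counts, or 0.351 CPM in the smallest of the libraries and 0.237 CPM in the one with most counts, where CPM is the count scaled to a library total of 1000000. The TMM factor, which rescales a library for its composition, was 1.57 in control mouse 1 and 0.719 to 1.16 in the other mice. The sorted cells carried the label's markers: the 7 Paneth cell markers took 4822757 to 7208564 counts per mouse. Of 15 immune cell markers, 9 had 0 counts in all 8 mice (Tyrobp, Fcer1g, Csf1r, Cd3e and Adgre1 among them), and the list summed to 0 to 10 counts in the control mice and 1 to 42 in the zinc deficient mice. The highest sum, 42, was in zinc deficient mouse 3, where Ptprc gave 32 counts. That library also held 3961 counts of 6 tuft cell markers, against 139 to 664 in the other mice. Markers of other epithelial cells were counted in every mouse. The 6 goblet cell markers summed to 64819 to 134505 counts and the 6 stem and transit amplifying cell markers to 6180 to 25156. The 8 enterocyte markers summed to 817 to 2522 and the 6 enteroendocrine cell markers to 168 to 496. The share of the sensor gene counts that came from such cells was not tested.

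The adaptors were the best expressed of the 10 genes, and the receptors for lipopolysaccharide and CpG DNA were at the limit of detection. Levels of different genes were compared as TPM, in which counts are set per base of annotated exon and every mouse is given an equal total. Ticam1 had the highest mean level (3.40 ± 1.28 TPM, SD, n = 8), followed by Myd88 (2.32 ± 0.66 TPM). Tlr3 (0.837 ± 0.347 TPM), Nod1 (0.697 ± 0.470 TPM) and Tlr5 (0.490 ± 0.283 TPM) lay between 0.225 and 1.79 TPM in every mouse. Ripk2 (0.189 ± 0.0511 TPM), Tlr2 (0.154 ± 0.128 TPM) and Nod2 (0.0625 ± 0.0529 TPM) were lower. Tlr9 (0.0225 ± 0.0427 TPM) and Tlr4 (0.00916 ± 0.0161 TPM) were the lowest. Among 18723 genes with a count and a length, Ticam1 stood at percentile 85.3, Myd88 at 79.5, Tlr3 at 60.8, Nod1 at 58.0, Tlr5 at 52.6, Ripk2 at 41.0, Tlr2 at 38.8, Nod2 at 29.5, Tlr9 at 18.9 and Tlr4 at 9.89.

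**Figure D1:**
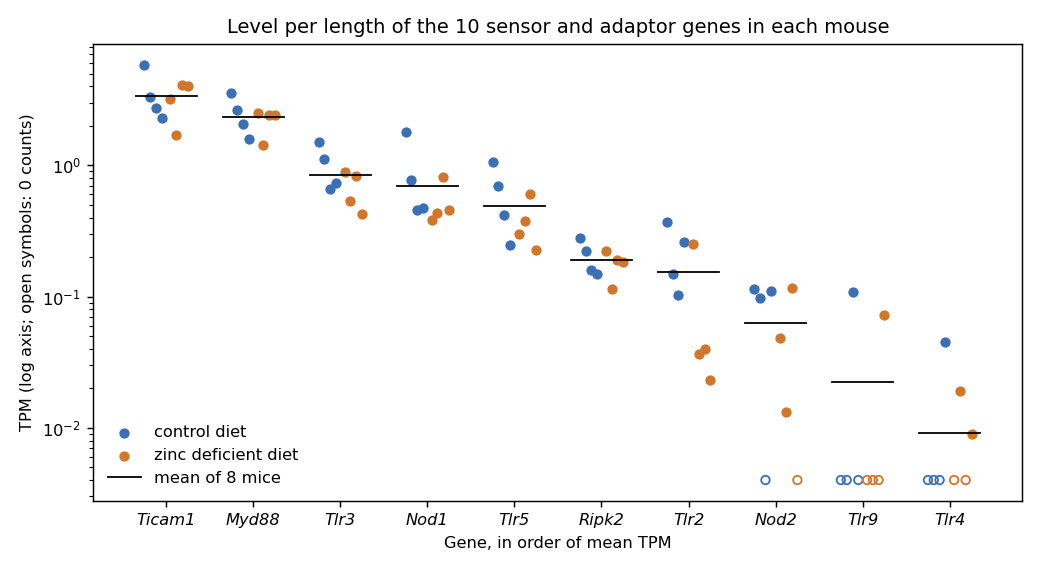
TPM (log axis) of the 10 genes in each of 8 mice, ordered by mean level; blue points are control mice, orange points zinc deficient mice, black lines the mean of 8 mice, and open symbols mice with 0 counts. Ticam1 and Myd88 exceed 1.4 TPM in every mouse, whereas Tlr9 has 0 counts in 6 mice and Tlr4 in 5.

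The ranges of all neighbours in this order overlapped. Within a mouse the order per base of annotated exon was firmer: Ticam1 exceeded Myd88, Myd88 exceeded Tlr3, Nod1 exceeded Tlr5 and Tlr5 exceeded Ripk2 in 8 of 8 mice. Tlr3 exceeded Nod1 in 6 mice, Ripk2 exceeded Tlr2 in 5, Tlr2 exceeded Nod2 in 7 and Nod2 exceeded Tlr9 in 6. Tlr9 exceeded Tlr4 in 2 mice and was below it in 2, so these 2 genes could not be ordered. The order of the mean levels was the same when the longest transcript was used as the length. In single mice, Nod1 above Tlr5 depended on the length. Their counts were 56 and 58 in control mouse 2 and 29 and 30 in control mouse 3. The annotated exons of Nod1 and Tlr5 span 5927 and 6723 bases, but their longest transcripts 5198 and 5220. With the longest transcript, Tlr5 lay above Nod1 in control mice 2 and 3.

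The cytosolic sensors were expressed unequally. Nod1 (ENSMUSG00000038058, chromosome 6, 54900927 to 54949647, minus strand, mm39) had 130, 56, 29 and 35 counts in the control mice and 28, 39, 66 and 43 in the zinc deficient mice. Nod2 (ENSMUSG00000055994, chromosome 8, 89373943 to 89415102, plus strand) had 7, 6, 0 and 7 counts in the control mice and 3, 1, 8 and 0 in the zinc deficient mice. Nod1 exceeded Nod2 in every mouse, and Nod2 lacked any count in 1 mouse of each diet. Ripk2 (ENSMUSG00000041135, chromosome 4, 16121400 to 16163796, minus strand), the kinase they share, had 10 to 20 counts in every mouse, the narrowest spread of TPM relative to its mean among the 10 genes.

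The adaptors gave the most counts of the 10 genes. Myd88 (ENSMUSG00000032508, chromosome 9, 119165000 to 119170486, minus strand) had 169, 126, 86 and 77 counts in the control mice and 120, 84, 127 and 148 in the zinc deficient mice. Ticam1 (ENSMUSG00000047123, chromosome 17, 56576319 to 56583786, minus strand) had 214, 122, 87 and 86 counts in the control mice and 119, 77, 166 and 192 in the zinc deficient mice. The exons of Myd88 share 628 bases with those of Acaa1a, a peroxisomal thiolase gene on the opposite strand with 2515 counts over the 8 mice. Whether the counting used strand is not given in the sources used here, so reads in the shared bases may belong to either gene.

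Among the receptors of the cell surface, the flagellin receptor Tlr5 (ENSMUSG00000079164, chromosome 1, 182782311 to 182805500, plus strand) was the best expressed, with 87, 58, 30 and 21 counts in the control mice and 25, 38, 55 and 24 in the zinc deficient mice. Tlr2 (ENSMUSG00000027995, chromosome 3, 83743576 to 83749074, minus strand) had 25, 10, 6 and 18 counts in the control mice and 17, 3, 3 and 2 in the zinc deficient mice. Tlr4 (ENSMUSG00000039005, chromosome 4, 66745783 to 66849936, plus strand) had 4 counts in control mouse 4, 2 in zinc deficient mouse 2, 1 in zinc deficient mouse 4 and 0 in the other 5 mice. Tlr5 was counted in every mouse, whereas the lipopolysaccharide receptor was near or below the limit in all of them. Among the receptors of endosomes, Tlr3 (ENSMUSG00000031639, chromosome 8, 45848702 to 45864117, minus strand) had 99, 74, 38 and 49 counts in the control mice and 59, 43, 60 and 36 in the zinc deficient mice. Tlr9 (ENSMUSG00000045322, chromosome 9, 106099797 to 106104082, plus strand) had 4 counts in control mouse 3, 4 in zinc deficient mouse 4 and 0 in the other 6 mice.

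Members of the same role were then compared within each mouse, as the difference in log2(TPM + 0.1) for 5 pairs. Nod2 was lower than Nod1 by a mean of -2.21 ± 0.52 (SD, n = 8; range -3.14 to -1.43). Myd88 was lower than Ticam1 by a smaller margin (-0.50 ± 0.20, range -0.74 to -0.24), which was -0.29 with the length of the longest transcript (range -0.53 to -0.03). Tlr5 was higher than Tlr4 (2.32 ± 0.76, range 1.26 to 3.53), and Tlr2 was higher than Tlr4 (1.07 ± 0.75, range 0.17 to 2.24). Tlr3 was higher than Tlr9 (2.92 ± 0.83, range 1.61 to 4.01). Each difference had the same sign in 8 of 8 mice, and the two-sided exact sign-flip permutation test gave p = 0.00781 for each pair, the smallest it can give with 8 mice, and 0.00781 after Benjamini-Hochberg adjustment over the 5 pairs. For Tlr2 minus Tlr4 the sign is not established in zinc deficient mice 2, 3 and 4, which had 3, 3 and 2 counts of Tlr2 against 2, 0 and 1 of Tlr4, all within the 3 counts that a gene at 0 allows. The sizes depend on the pseudocount: with 1 TPM the differences were -0.64 for Nod2 minus Nod1, 0.54 for Tlr5 minus Tlr4, 0.19 for Tlr2 minus Tlr4 and 0.83 for Tlr3 minus Tlr9.

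**Figure D2:**
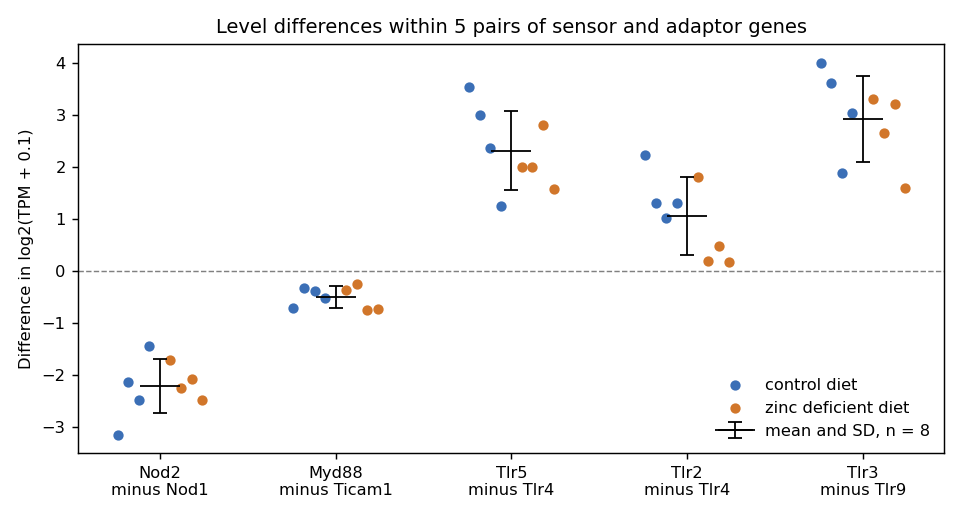
Difference in log2(TPM + 0.1) within 5 pairs of genes in each mouse (blue: control, orange: zinc deficient; black: mean and SD of 8 mice). All 8 mice lie on the same side of 0 in each pair, and the mice of the 2 diets overlap.

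The balance within these pairs did not pass a test for a diet difference. The zinc deficient minus control difference was 0.17 for Nod2 minus Nod1 (exact permutation p = 0.714), -0.04 for Myd88 minus Ticam1 (exact permutation p = 0.8) and -0.44 for both Tlr5 minus Tlr4 and Tlr3 minus Tlr9 (exact permutation p = 0.457 for each). It was farthest from 0 for Tlr2 minus Tlr4, at -0.80 (exact permutation p = 0.114, adjusted p = 0.571 over 5 pairs). Tlr4 and Tlr9 had 0 counts in most mice. Pairs with either gene therefore mostly follow the TPM of Tlr5, Tlr2 or Tlr3, which has no TMM scaling, and say little about balance. Without control mouse 1 the diet difference was -0.11 for Tlr5 minus Tlr4 and -0.15 for Tlr3 minus Tlr9.

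No sensor gene passed the test for a difference between diets. Of the 10 genes, 7 passed the filter on low counts and 3 (Nod2, Tlr4 and Tlr9) did not. Of the 7, 0 passed an adjusted p of 0.05 in edgeR's quasi-likelihood test, where 0.403% of all 10911 genes tested did (44 genes, 16 higher and 28 lower in zinc deficiency). None of the 7 had an unadjusted p under 0.05, against 10.5% of all genes tested, and DESeq2 called 0 as well. The values of the 2 diets overlapped for each of the 7, while 6.09% of all genes tested did not overlap. The fold changes of 3 genes were positive and of 4 negative, with a median log2 fold change of -0.11, beside -0.005 over all genes tested. In these sorted bulk samples, fewer cells of a type and less RNA per cell cannot be told apart.

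Values by diet are given as TMM-normalised CPM. Nod1 measured 7.01, 4.59, 3.66 and 3.71 in the control mice and 3.02, 4.93, 5.26 and 4.02 in the zinc deficient mice. Control mouse 1 was the highest and the diets overlapped. The log2 fold change, zinc deficient minus control, was -0.16 (SE 0.28, 95% interval -0.75 to 0.43, adjusted p = 0.903). Ripk2 measured 1.08 to 1.31 in the control mice and 1.20 to 1.73 in the zinc deficient mice, a log2 fold change of 0.26 (SE 0.41, adjusted p = 0.887). Its 95% interval was -0.60 to 1.13, with at most 20 counts in a mouse. Nod2, too low to be tested with the filter, pooled to 20 counts in the control mice (0.489 CPM, exact 95% Poisson interval 0.299 to 0.756) and to 12 in the zinc deficient mice (0.266 CPM, 0.138 to 0.465). Both intervals include no error but that of counting. Fitted without the filter, the log2 fold change of Nod2 was -0.52 (SE 1.00, edgeR adjusted p = 0.871), and DESeq2 gave -0.53 (SE 1.13, adjusted p = 0.959).

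Both adaptors had higher mean TMM-normalised CPM in zinc deficiency, without passing the test, and not with every scaling. Ticam1 measured 9.11 to 11.5 in the control mice and 12.8, 9.73, 13.2 and 17.96 in the zinc deficient mice. Of the zinc deficient mice, 3 lay above every control mouse and 1 (mouse 2) lay among them. The log2 fold change was 0.37 (SE 0.20, 95% interval -0.04 to 0.79, edgeR adjusted p = 0.539). Myd88 measured 9.11, 10.3, 10.8 and 8.15 in the control mice and 13.0, 10.6, 10.1 and 13.8 in the zinc deficient mice. Zinc deficient mice 1 and 4 lay above the control mice and the other 2 among them. Its log2 fold change was 0.31 (SE 0.19, 95% interval -0.08 to 0.70, adjusted p = 0.605). With library size as the only scaling, which moved the median of all genes tested to -0.37, the log2 fold change of Ticam1 was 0.0021, that of Myd88 -0.05 and that of Ripk2 -0.09. With the same scaling it was -0.59 for Nod1, -0.55 for Tlr5 and -0.47 for Tlr3.

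**Figure D3:**
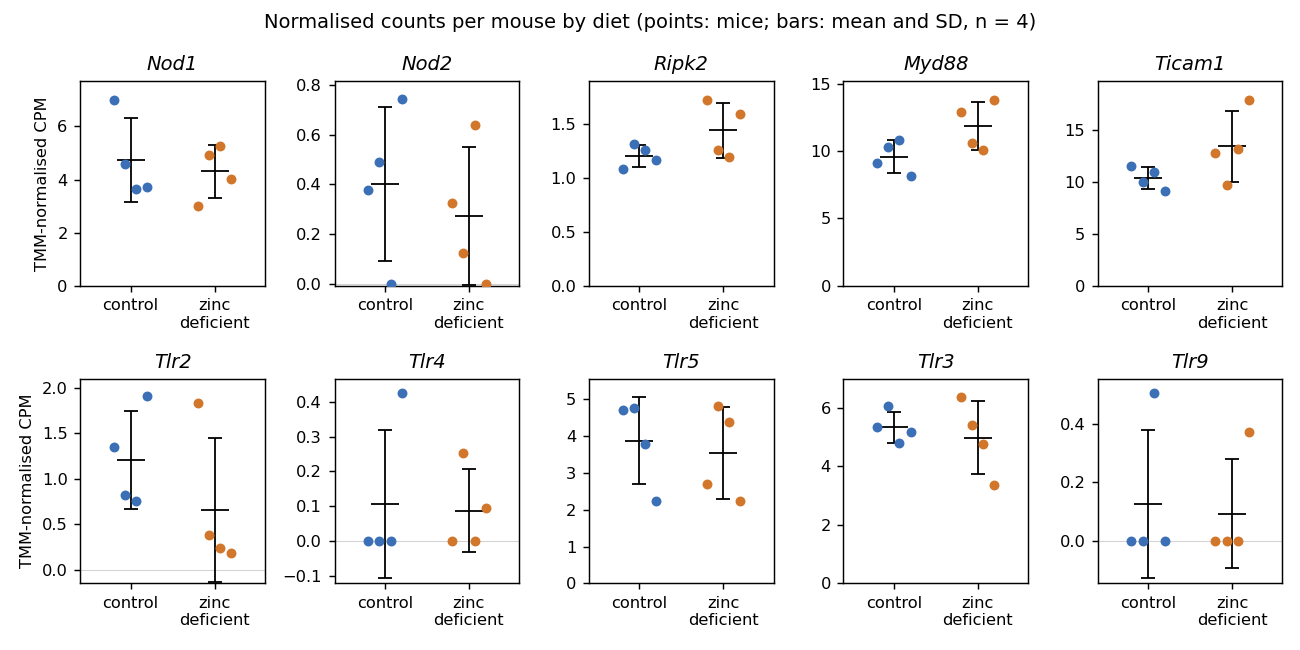
TMM-normalised CPM of the 10 genes by diet, 1 point per mouse, with the mean and SD of 4 mice. The diets overlap in every panel, and in the zinc deficient group the Tlr2 value of mouse 1 (1.83) stands apart from the other 3 (0.187 to 0.379).

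Tlr2 showed the largest log2 fold change in absolute size of the 7 genes, and it rested on few counts. It measured 1.35, 0.820, 0.756 and 1.91 in the control mice and 1.83, 0.379, 0.239 and 0.187 in the zinc deficient mice. Zinc deficient mice 2, 3 and 4 lay below every control mouse, whereas mouse 1 was within their range. The log2 fold change was -0.91 (SE 0.65, 95% interval -2.27 to 0.45, adjusted p = 0.682), and without zinc deficient mouse 1 it was -2.17 (edgeR adjusted p = 0.224). It was -0.59 without zinc deficient mouse 3 and also without mouse 4 (edgeR adjusted p = 0.809 and 0.932).

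The other receptors differed less than their spread. Tlr5 measured 3.86 ± 1.18 in control and 3.53 ± 1.25 in zinc deficient mice (SD, n = 4 each), a log2 fold change of -0.15 (95% interval -0.83 to 0.53, adjusted p = 0.923). Tlr3 measured 5.35 ± 0.533 and 4.99 ± 1.26, a log2 fold change of -0.11 (95% interval -0.63 to 0.41, adjusted p = 0.925). Tlr4 pooled to 4 counts in the control and 3 in the zinc deficient mice, and Tlr9 to 4 in each.

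**Figure D4:**
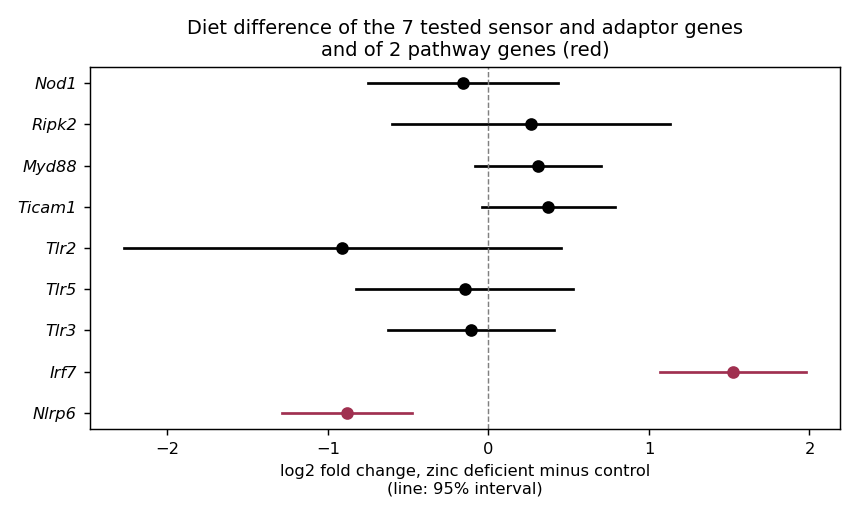
Log2 fold change (zinc deficient minus control) with its 95% interval for the 7 sensor genes tested (black) and for the pathway genes Irf7 and Nlrp6 (red). The interval includes 0 for each of the 7 sensor genes, whereas Irf7 lies at 1.52 and Nlrp6 at -0.88.

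The rest of the pathway was read from 10 lists with 107 genes, of which 73 passed the filter. Of these 73, 1 passed the test (Irf7), where 0.403% of all genes tested did. An unadjusted p under 0.05 was found for 8 (11.0%, near the 10.5% of all genes tested). The diets did not overlap for 6 (8.22%, beside 6.09% of all genes tested). The other Toll-like receptors had few counts or 0, and none passed the filter: Tlr7, Tlr8, Tlr11 and Tlr13 had 0 counts in all 8 mice, Tlr12 had at most 1 and Tlr6 at most 7. Tlr1, a partner of TLR2, had at most 13 counts and 41 over the 8 mice (0.113 TPM), beside 32 for Nod2. Of the genes that help Toll-like receptors bind ligand or reach their compartment, 6 of 8 were tested and 0 called, with a median log2 fold change of 0.12. Unc93b1, the chaperone that carries TLR3 and TLR9 to endosomes, had 245 to 596 counts, and Hsp90b1, the chaperone that folds most Toll-like receptors, had 1653 to 4248. Ly96 (MD-2), which binds lipopolysaccharide together with TLR4, had 21 to 59 counts in mice where Tlr4 had 0 to 4. Cd14, the lipopolysaccharide co-receptor, measured 2.27, 1.72, 1.39 and 2.01 TMM-normalised CPM in the control mice and 1.30, 0.126, 1.117 and 0.281 in the zinc deficient mice. Every zinc deficient mouse lay below every control mouse, but the log2 fold change of -1.35 (SE 0.54) did not pass the test (edgeR adjusted p = 0.365). The separation rested on few counts: 42, 21, 11 and 19 in the control mice and 12, 1, 14 and 3 in the zinc deficient mice.

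Peptidoglycan handling genes and partners of the NOD proteins gave 10 tested genes of 14 and 0 called, with a median log2 fold change of -0.01. Pglyrp1, a secreted peptidoglycan-binding protein, was the most abundant of them at 4152 to 5780 counts, or 205 ± 31.3 TPM (SD, n = 8), in the cells where Nod2 lay at 0.0625 TPM. Erbin, a binding partner of NOD2, had 514 to 1548 counts, and Xiap and Birc2, ubiquitin ligases that act with RIPK2, had 135 to 340 and 127 to 289. Slc15a3 and Slc46a2, transporters of peptidoglycan fragments, and Pglyrp2, which cleaves peptidoglycan, had 0 counts in all mice. Nagk, the kinase of N-acetylglucosamine, which also phosphorylates muramyl dipeptide, had 64 to 153 counts.

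Below the receptors, 15 of 17 adaptors and kinases were tested. Irf7, an interferon-inducible transcription factor that acts below TLR7 and TLR9, rose in zinc deficiency. It measured 10.3, 8.69, 5.93 and 7.94 TMM-normalised CPM in the control mice and 28.8, 17.3, 18.7 and 30.7 in the zinc deficient mice, with no overlap. The log2 fold change was 1.52 (SE 0.22, edgeR adjusted p = 0.00395). It was called in 16 of 17 fits. With library size as the only scaling it was 1.12 (edgeR adjusted p = 0.184). The other 14 tested adaptors and kinases did not pass the test, and the list's median was -0.02. Irak1, the kinase recruited by MYD88, had 471 to 1490 counts.

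The NF-κB core genes (8 of 8 tested, 0 called, median 0.02) and the brakes on this signalling (10 of 12 tested, 0 called, median -0.02) lay close to the background of all genes. Nfkbia, an inhibitor of NF-κB that is also its target, measured 24.5 ± 2.39 TMM-normalised CPM in control and 22.5 ± 4.86 in zinc deficient mice (SD, n = 4 each). Of 14 NF-κB response genes, 5 were tested and 0 called, with a median of -0.21. The cytokine and chemokine genes Il1b, Il6, Cxcl2 and Cxcl10 had 0 counts in all 8 mice, Cxcl1 had at most 1 and Tnf at most 11.

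The inflammasome gene Nlrc4 lay above the Toll-like receptors for bacterial ligands in TPM, which was not particular to it. Pycard, Naip2 and Nlrp6 of the same list also exceeded Tlr5, with more counts over fewer exon bases. Their mean CPM in control and zinc deficient mice was 39.1 and 27.3, 35.7 and 33.9, and 33.5 and 14.0. That of Tlr5 was 4.62 and 3.17. Nlrc4, the inflammasome adaptor for cytosolic flagellin, had 309 to 818 counts (8.25 ± 2.60 TPM, SD, n = 8), where the surface flagellin receptor Tlr5 had 0.490 TPM. Its mean was higher in zinc deficient mice (52.8 ± 5.33 TMM-normalised CPM) than in control mice (41.9 ± 3.54) without overlap, and the log2 fold change of 0.33 did not pass the test (edgeR adjusted p = 0.386). Nlrp6, an inflammasome sensor of the intestinal epithelium, measured 30.3, 35.1, 23.5 and 25.4 in the control mice and 20.9, 12.1, 12.2 and 16.8 in the zinc deficient mice, again without overlap. The log2 fold change was -0.88 (SE 0.19), just short of the threshold at an edgeR adjusted p of 0.0513, and it was called in 4 of 17 fits. Nlrp3 had 0 counts in all mice. Of the 14 genes of flagellin and inflammasome sensing, 10 were tested and 0 called, with a median of -0.09. The cytosolic RNA and DNA sensors (8 of 8 tested, 0 called, median 0.11) held 3 genes with an unadjusted edgeR p under 0.05. These were Dhx58 at 1.32 (adjusted p = 0.335), Zbp1 at 0.71 (adjusted p = 0.220) and Sting1 at 0.61 (adjusted p = 0.243). Of all genes tested, 10.5% had an unadjusted edgeR p under 0.05.

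**Figure D5:**
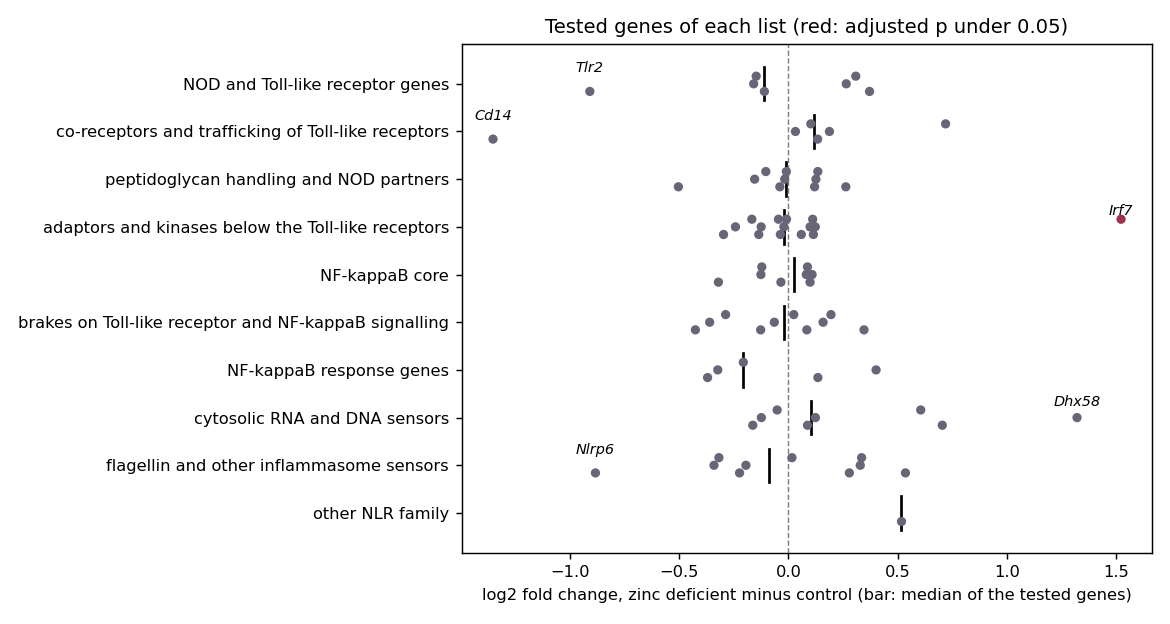
Log2 fold change (zinc deficient minus control) of each tested gene of the 10 sensor genes and of the pathway lists, 1 point per gene; the black bar is the median of the list and red marks an adjusted p under 0.05. Irf7 is the single red point, at 1.52.

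All 6 markers of stem and transit amplifying cells had a negative log2 fold change in zinc deficiency (median -0.82). Of them, 5 had an unadjusted edgeR p under 0.05 and 1 was called, beside 10.5% and 0.403% of all genes tested. The called gene was Top2a, a topoisomerase of dividing cells, which fell by 1.18 on the log2 scale (edgeR adjusted p = 0.0229). The 6 markers of stem and transit amplifying cells summed to 1357 to 1940 TMM-normalised CPM in the control mice and 578 to 1136 in the zinc deficient mice, without overlap. The 7 Paneth cell markers summed to 294500 to 608000 and 477200 to 846900, which overlapped, and 0 of them were called. All 7 had a positive log2 fold change (median 0.46). Of the 7, 2 had an unadjusted edgeR p under 0.05, each without overlap between the diets. These were Mptx2 at 1.45 (edgeR adjusted p = 0.0712) and Ang4 at 0.99 (edgeR adjusted p = 0.276). The part of these marker values in the differences of Irf7, Nlrp6 and Cd14 was not tested. Without control mouse 1 and zinc deficient mouse 3, the libraries with the highest TMM factor and the most tuft cell markers, 0 sensor genes and 1 pathway gene (Irf7, log2 fold change 1.76) were called.

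Promoter sequence was searched for the core of the interferon-stimulated response element (GAAANNGAA) and for NF-κB sites (GGGACTTTC and GGGAATTTC) on both strands, from 250 bases before to 50 bases after the start of the canonical transcript. None of the 10 sensor genes held any of these exact letters in that window. Other forms of these sites were not searched: the Tlr2 window holds GGGAATTCCC, which the search does not count. The result therefore does not show that the windows lack NF-κB sites. Of 21770 promoters of the same length, 8.78% held GAAANNGAA, 0.367% GGGACTTTC and 0.276% GGGAATTTC. Among the pathway genes, 21 held GAAANNGAA (Dhx58 and Zbp1 among them), 2 held GGGACTTTC (Cyld and Pglyrp1) and 3 held GGGAATTTC (Cxcl1, Cxcl2 and Nfkbia), while the windows of Irf7 and Nlrp6 held none of them.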

How the data were processed

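RNA of sorted Paneth cells was sequenced after library preparation with a stranded mRNA kit (TruSeq). The values deposited by the authors are raw counts, whole numbers for each Ensembl identifier. The processing notes of the submitters name FastQC 0.12.0, STAR 2.7.0a, DESeq2 and mm39. Not given in the sources used here are the counting program, its annotation, its strand setting and its treatment of multi-mapped reads. Of the 55414 identifiers, 54749 were found in GENCODE M39 on GRCm39, which gave symbols, positions and lengths. Groups and replicate numbers followed the labels.

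The robust quasi-likelihood test of edgeR 4.0.16 (R 4.3.3) compared the diets after TMM scaling and its filter on low counts, with Benjamini-Hochberg adjustment over 10911 genes and a threshold of 0.05. The fit was tested on simulated data. TMM-normalised CPM and TPM were computed from the counts. The smallest library gives 0.117 CPM per count. The 5 pairs were tested by exact permutation with a pseudocount of 0.1 TPM. Alternatives were DESeq2 1.42.0, other scalings, no filter, no robust option, a replicate block, and leaving out mice. The sensor genes and pathway lists were chosen with earlier results of these data known. Every sensor gene is named. Of the other lists, called genes are named, otherwise those with the highest CPM, and further genes were chosen after their values were seen. Genes most like Nod2 across mice are not given, because Nod2 had 0 to 8 counts per mouse. Libraries of the same group differed by more than sampling noise (chi-square per degree of freedom 5.70 or more for all pairs of mice).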

Additional observations from a re-analysis of the deposited data

Results flagged for a closer look

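In groups of 4 mice, a value was picked out where its gap to the nearest other mouse as a share of the range of the group exceeded Dixon's 95% critical value. Of 26 groups examined, 4 held such a value, and chance gives about 1 in 20. Tlr2 in zinc deficient mouse 1 measured 1.83 TMM-normalised CPM (17 counts, against 2, 3 and 3 in the other zinc deficient mice). Tlr4 in control mouse 4 measured 0.424 (4 counts, against 0 in the other 3). Tlr9 measured 0.504 in control mouse 3 and 0.374 in zinc deficient mouse 4, with 4 counts each against 0 in the other 3 mice of either diet. For Tlr4 and Tlr9, a group with 1 detected mouse always passes this criterion.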

How the results depend on the processing

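No setting called a sensor gene: the count of sensor genes past the threshold was 0 under all 16 alternatives. Of 111 fold changes of the 7 genes under these alternatives, 106 kept their direction. The exceptions were Ripk2 (-0.092) and Myd88 (-0.054) with library size only, Nod1 without control mouse 1, and Tlr3 and Tlr5 without zinc deficient mouse 4, where the values over mice left out ranged from -0.27 to 0.11 for Nod1, from -0.25 to 0.042 for Tlr3 and from -0.33 to 0.021 for Tlr5; the causes were not tested. The genes called of all genes numbered 11 with library size only, 251 without the filter on low counts, 25 without the robust option, 134 with DESeq2, and 8 to 36 when a mouse was left out (8 without control mouse 2 or 4). The pathway genes called numbered 0 with library size only, 2 without the filter, 2 with the replicate block and 2 with DESeq2, and 1 to 2 when a mouse was left out.

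The labels do not say whether mice with the same number were paired. The deviations of same-numbered mice correlated by 0.025 to 0.09, and those of differently numbered mice by -0.177 to 0.145. These few correlations cannot decide whether the mice were paired. The replicate block gave 53 genes called, beside 44 without it, with 0 sensor genes and 2 pathway genes (Irf7 and Nlrp6).

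With mice at 0 counts on either gene left out, the differences were -2.12 for Nod2 minus Nod1 (exact permutation, adjusted p = 0.0781), 1.61 for Tlr5 minus Tlr4, 0.56 for Tlr2 minus Tlr4 (adjusted p = 0.312 for both) and 1.74 for Tlr3 minus Tlr9 (adjusted p = 0.5), with too few mice left to pass the threshold. Leaving out 1 mouse, the diet difference of Nod2 minus Nod1 ranged from -0.11 to 0.46 and that of Myd88 minus Ticam1 from -0.13 to 0.038. It ranged from -0.87 to -0.11 for Tlr5 minus Tlr4, from -1.18 to -0.55 for Tlr2 minus Tlr4 and from -0.86 to -0.078 for Tlr3 minus Tlr9. The fold change of Tlr2 ranged from -2.17 to -0.59. Depth limits Nod2, Tlr4 and Tlr9 most, with at most 8 counts in a mouse.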
